A study of Rattus norvegicus with 10 samples.

Results

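Activated matrix fibroblast nuclei were picked out of single-nucleus RNA-seq of rat heart by the transcripts they carried. A nucleus was counted when it held 500 or more UMIs (unique molecular identifiers, each standing for 1 captured transcript), at least 3 UMIs of Pdgfra, Dcn, Col1a1 and Col1a2 together, at most 2 UMIs of the leukocyte gene Ptprc, the endothelial gene Flt1 and the pericyte gene Rgs5 together, and at least 2 UMIs of Ltbp2, Adam12, Tnc and Postn together (the sum A). A also had to exceed the sum Q of Hmcn2, Scara5, Abca8a and Htra3, genes of resting fibroblasts. The rule found 1046 of 22037 nuclei. The tissue was the area at risk of rat hearts, the muscle fed by the tied artery, taken 24 h after injury by ischaemia and reperfusion (left coronary artery ligation in the labels), and the animals had received either vehicle or the small molecule BT2 at 100 mg/kg. There was 1 nuclear library for each treatment, so differences between the nuclear libraries carry no test of treatment and their intervals cover counting error only. Bulk RNA-seq of the same region gave a measure that the rule did not use, with 4 groups of 2 libraries: vehicle or BT2, sampled 4 h or 24 h after the injury. The labels give no strain, sex or age, do not state the bulk dose, and do not say whether numbered bulk samples were separate animals, so p-values measure the spread between these samples.

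After an infarct, cardiac fibroblasts leave their resting state, divide, migrate into the injured muscle and lay down the matrix that becomes the scar. Ltbp2 encodes a latent TGF-beta binding protein of the elastic fibre, Adam12 a membrane metalloprotease, Tnc the matricellular glycoprotein tenascin C and Postn periostin, and all of these are switched on in wound fibroblasts. Hmcn2 and Htra3 encode a hemicentin and a secreted serine protease, Scara5 a ferritin receptor and Abca8a a lipid transporter.

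The vehicle library held 438 activated nuclei among 11540, a share of 3.80% (95% exact binomial interval 3.45 to 4.16), and the BT2 library held 608 among 10497, a share of 5.79% (5.35 to 6.26). The share was therefore 1.53 times higher with BT2 (1.35 to 1.73). Resting-type fibroblast nuclei, those meeting the same first conditions with Q of at least 2 and above A, differed more, at 254 nuclei (2.2%) with vehicle and 677 (6.45%) with BT2. Among all nuclei that met the fibroblast conditions, 60.0% were activated with vehicle (56.3 to 63.6, of 730) and 44.9% with BT2 (42.3 to 47.6, of 1353), a ratio of 0.749 (0.661 to 0.849). The activated nuclei were thus a larger part of all nuclei and a smaller part of fibroblast nuclei in the BT2 library. Thinning nuclei to 1000 UMIs before applying the rule left out those of lower depth and kept 10189 vehicle and 9227 BT2 nuclei. Of the nuclei kept, 1.38% and 1.82% were activated, as were 50.5% and 32.2% of those meeting the fibroblast conditions.

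**Figure D1:**
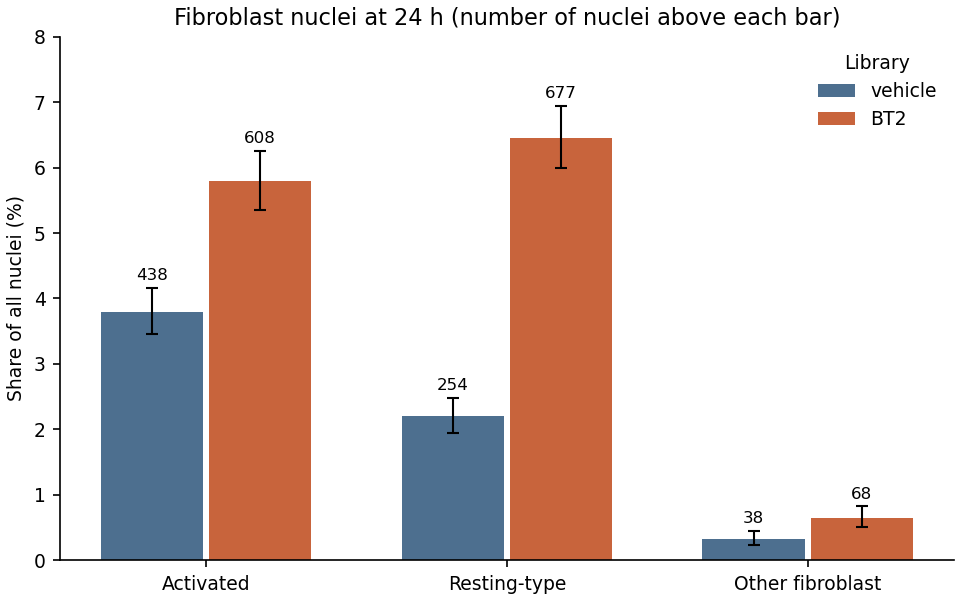
Share of all nuclei (vertical axis, percent) of activated, resting-type and other fibroblast nuclei in the vehicle and BT2 libraries at 24 h, with 95% exact binomial intervals and the number of nuclei above each bar. Activated nuclei made up 3.80% and 5.79%, and resting-type nuclei 2.2% and 6.45%.

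How much of the activated programme the rule captured differed between the libraries. Activated nuclei held 34.4% of all UMIs of the A genes in the vehicle library and 46.9% in the BT2 library. Another 449 vehicle and 361 BT2 nuclei met the A and fibroblast conditions and carried more than 2 UMIs of Ptprc, Flt1 and Rgs5. Those nuclei held 36.1% and 23.8% of the A UMIs, and their median depth was 11461 and 7517 UMIs, against 4961 and 5663 UMIs in the activated nuclei. Whether they were mixtures of nuclei was not tested, since no doublet caller was run. Counting them as activated gave 7.69% of vehicle and 9.23% of BT2 nuclei, a ratio of 1.20 (1.10 to 1.32). At the edges of the rule, 12 vehicle and 15 BT2 activated nuclei had an A of exactly 2 UMIs, and 10 and 7 nuclei lay just outside with an A of 1 and no Q. At the fibroblast threshold, 67 vehicle and 99 BT2 activated nuclei had exactly 3 fibroblast UMIs, while 83 and 132 nuclei with 2 were left out. The libraries shared 37 cell barcodes, and no barcode was an activated nucleus in both.

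Most activated nuclei held transcripts of several A genes. These genes chose the nuclei, so their values here describe the choice and do not support the label. The median nucleus held 24 A UMIs with vehicle and 25 with BT2, with ranges of 2 to 286 and 2 to 309. A single A gene was detected in 6.16% and 6.09% of them, 3 genes in 44.5% and 41.4%, and all 4 in 104 of the 438 and 149 of the 608. Adam12 was detected in 96.3% of vehicle and 97.4% of BT2 activated nuclei, Ltbp2 in 84.5% and 77.0%, Postn in 67.8% and 74.5%, and Tnc in 37.2% and 35.5%. After thinning to 1000 UMIs, Adam12 was found in 85.3% and 86.3% of activated nuclei, in 11.2% and 11.7% of resting-type nuclei and in 1.48% and 5.70% of cardiomyocyte nuclei, which should lack it. The cardiomyocyte share, and the 7.78% and 13.0% of leukocyte nuclei with a thinned Adam12 UMI, were higher in the BT2 library, and the part of free RNA in this was not tested. Of the fibroblast sum, Col1a2 gave only 1 and 7 UMIs over all activated nuclei, so this condition rested on Pdgfra, Dcn and Col1a1.

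The fibroblast part of the label was checked against fibroblast genes outside the rule. Of 18 general fibroblast genes at a mean of 10 CPM (a gene's UMIs in the summed nuclei, scaled to a common total) or more, 16 were at least 2-fold higher in the activated nuclei than in endothelial nuclei in both libraries, and 15 than in leukocyte nuclei. Col3a1, a fibrillar collagen, stood at 1985 CPM with vehicle and 2325 CPM with BT2 in the summed activated nuclei, against 249 and 416 CPM in endothelial nuclei. Of 13 resting fibroblast genes, 10 were also at least 2-fold above leukocyte nuclei in both libraries, and 10 each above endothelial and cardiomyocyte nuclei. These 13 summed to 7607 and 7772 CPM in activated and 12833 and 9559 CPM in resting-type nuclei. The check therefore does not bear on the activated part of the label. Markers of other cell types were present at low levels. The 15 cardiomyocyte markers summed to 4128 CPM with vehicle and 3002 CPM with BT2 in activated nuclei, against 95001 and 96375 CPM in cardiomyocyte nuclei, and in resting-type nuclei they went the other way, at 2384 and 5545 CPM. The 12 endothelial markers summed to 826 and 921 CPM, against 10161 and 8895 CPM in endothelial nuclei, and the 14 macrophage markers to 169 and 172 CPM. The T-cell genes Cd3e and Cd3g, the mesothelial genes Msln and Upk3b and the adipocyte gene Adipoq were at 0 in activated nuclei of both libraries. Other members of their lists were not. With vehicle and BT2, UMIs were found for 6 and 7 of 11 lymphocyte, 3 and 3 of 10 mesothelial and 4 and 3 of 7 adipocyte markers. The 8 Schwann cell markers summed to 72.2 and 168 CPM, against 795 and 479 CPM in resting-type nuclei.

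Beside the genes of the rule, several genes of cell division were among those with the largest excess in activated over resting-type nuclei. The comparison used nuclei chosen on other genes of the same cells, so it is a description. Of 9060 genes, 714 (7.88%) were at least 2-fold higher and 491 (5.42%) at least 2-fold lower in activated nuclei in both libraries. The 12 genes with the largest excess were Hmga2, Ccnb1, Birc5, Ube2t, Ccna2, Fosl1, Uhrf1, Fam83d, Troap, Wnt2, Espl1 and Pak1. Ccna2 and Ccnb1 encode cyclins A and B, Birc5 encodes survivin, Espl1 separase, which cuts sister chromatids apart, and Uhrf1 a factor that maintains DNA methylation behind the replication fork. Ccna2 stood at 42.4 CPM with vehicle and 35.9 CPM with BT2 in activated nuclei and at 2.89 and 2.16 CPM in resting-type nuclei. Hmga2, a chromatin protein of embryonic and growing cells, stood at 171 and 246 CPM against 2.89 and 5.39 CPM. Fosl1, an AP-1 subunit, stood at 37.7 and 34.1 CPM against 0.962 and 2.70 CPM. The kinase Pak1 stood at 394 and 461 CPM against 41.4 and 40.5 CPM. Genes were kept only if both libraries had the same direction, and were ranked by the smaller of the 2 library ratios. The shared order of the 2 libraries was therefore set by that choice.

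**Figure D2:**
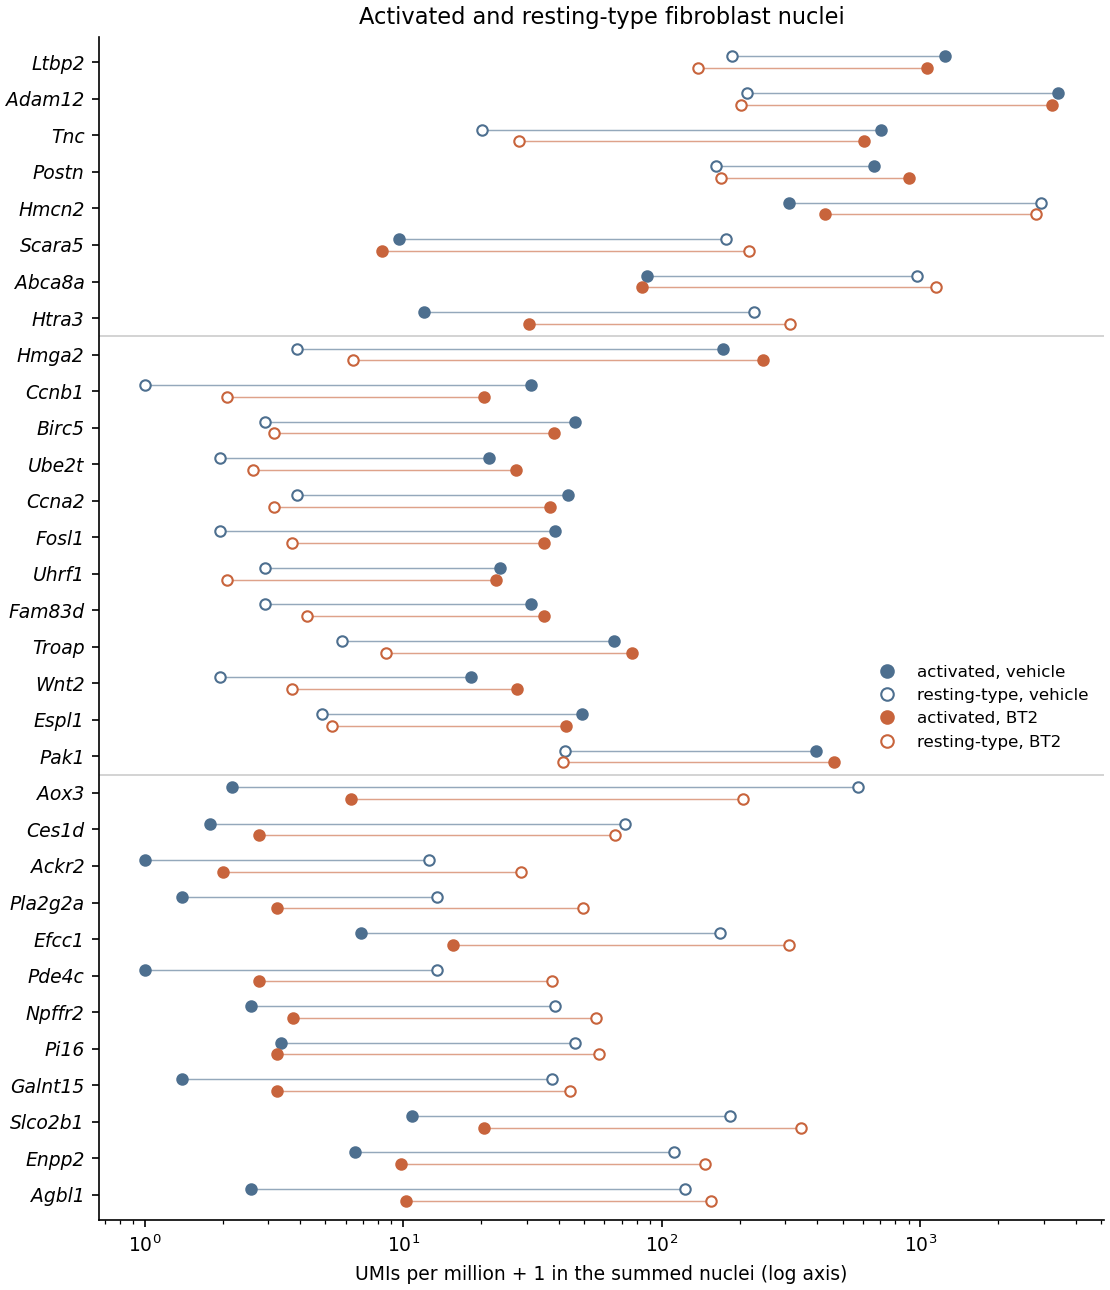
CPM plus 1 (horizontal log axis) in summed activated nuclei (filled) and summed resting-type nuclei (open) of each library, for the 8 genes of the A and Q sums, the 12 named genes highest and the 12 lowest in activated nuclei. Pak1 lay at 394 and 461 CPM in activated and 41.4 and 40.5 CPM in resting-type nuclei, and the lower block shows the reverse order.

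Of 31 measured genes on a cell cycle list, 27 were at least 2-fold above resting-type nuclei in both libraries. Over all genes at a mean of 10 CPM or more in activated nuclei, 808 of 8987 were. The list's median log2 ratio was 2.17 with vehicle and 2.34 with BT2, against 0.17 and 0.13 over those genes. Mki67, the antigen Ki-67, stood at 290 CPM with vehicle and 324 CPM with BT2 in activated nuclei and at 40.4 and 61.5 CPM in resting-type nuclei. Top2a, the topoisomerase of dividing cells, stood at 262 and 244 CPM against 44.2 and 27.0 CPM. Counted per nucleus after thinning to 1000 UMIs, which left out 9 vehicle and 3 BT2 activated nuclei of lower depth, 33.3% of vehicle (28.9 to 38.0) and 35.7% of BT2 activated nuclei (31.9 to 39.7) held 2 or more UMIs of 7 mitotic and replication genes (Mki67, Top2a, Cenpf, Cenpe, Anln, Kif11 and Aspm), a set and threshold chosen after their values were seen. The same count was 3.61% and 3.46% in resting-type nuclei, 3.68% and 6.0% in leukocyte nuclei and 2.04% and 3.94% in endothelial nuclei. Without thinning it was 68.5% and 67.9% of activated nuclei and 7.48% and 6.06% of resting-type nuclei. The intervals of the vehicle and BT2 libraries overlapped in activated nuclei.

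The promoters of the leading cell cycle genes are shown because they share a short element. CCAAT is the core of the site bound by NF-Y, a factor known for genes of the late cell cycle, and TTTGAA is the core of the cell cycle homology element. Windows of 250 bases before the annotated start were taken from RefSeq (build GRCr8), which held 11 of the 12 leading genes, and both strands were searched. CCAAT was found in 8 of the 11 and in 20 of 26 genes of the cell cycle list, against 34% of all 33469 windows of that length. 2 or more CCAAT matches were found in 14 of the 26, against 9.42% of all windows. TTTGAA was found in 4 of the 11 and in 8 of the 26, against 16.2% of all windows. These motifs were chosen after the leading genes had been seen. The windows of the 4 leading genes with 2 or more CCAAT matches follow, with matches to either motif or its reverse complement in capitals.
Ccnb1 (chr2:33655226-33655475, minus strand): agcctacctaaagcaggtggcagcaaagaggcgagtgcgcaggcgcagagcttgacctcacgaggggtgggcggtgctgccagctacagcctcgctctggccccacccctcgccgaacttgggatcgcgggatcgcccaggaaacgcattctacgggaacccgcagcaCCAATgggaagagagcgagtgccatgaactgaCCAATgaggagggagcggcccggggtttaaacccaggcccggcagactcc
Ube2t (chr13:48954916-48955165, plus strand): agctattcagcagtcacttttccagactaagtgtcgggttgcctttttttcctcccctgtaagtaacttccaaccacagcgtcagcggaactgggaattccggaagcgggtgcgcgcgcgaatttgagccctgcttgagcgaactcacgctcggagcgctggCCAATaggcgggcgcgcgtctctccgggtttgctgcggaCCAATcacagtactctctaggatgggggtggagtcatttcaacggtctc
Fam83d (chr3:167841542-167841791, plus strand): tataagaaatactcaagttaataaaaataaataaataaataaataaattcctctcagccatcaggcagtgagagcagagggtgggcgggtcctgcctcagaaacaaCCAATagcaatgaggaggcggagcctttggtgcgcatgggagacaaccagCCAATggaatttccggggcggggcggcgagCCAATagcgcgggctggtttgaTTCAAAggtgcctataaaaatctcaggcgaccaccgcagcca
Troap (chr7:132113238-132113487, plus strand): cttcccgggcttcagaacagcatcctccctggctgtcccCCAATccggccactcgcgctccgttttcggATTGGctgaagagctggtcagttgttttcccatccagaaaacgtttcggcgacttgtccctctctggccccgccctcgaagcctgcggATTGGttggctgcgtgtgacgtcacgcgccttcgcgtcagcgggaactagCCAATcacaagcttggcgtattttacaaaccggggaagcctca
In Ccnb1, Ube2t and Fam83d all CCAAT matches read on the gene's own strand, and Troap carries them on both. The windows of Ltbp2, Adam12, Tnc and Postn held neither motif, nor the AP-1 site TGANTCA, the TEAD site GGAATG, the EGR site GCGTGGGCG or a CArG box, which were in 6.34%, 12.1%, 0.478% and 1.5% of all windows. TATAAA was found in Tnc and Postn and in 12.9% of all windows. A match of letters is a description and shows no binding.

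The genes lowest in activated nuclei relative to resting-type nuclei were Aox3, Ces1d, Ackr2, Pla2g2a, Efcc1, Pde4c, Npffr2, Pi16, Galnt15, Slco2b1, Enpp2 and Agbl1. Aox3, an aldehyde oxidase, stood at 1.18 CPM with vehicle and 5.27 CPM with BT2 against 571 and 205 CPM. Enpp2, which encodes autotaxin, the enzyme that makes lysophosphatidic acid, stood at 5.50 and 8.78 CPM against 111 and 146 CPM. Pi16, a marker of adventitial fibroblasts, stood at 2.36 and 2.26 CPM against 45.2 and 56.1 CPM. Ackr2 and Pde4c had no UMI in vehicle activated nuclei. All 12 were thus near the level of a few UMIs in the activated nuclei of the vehicle library, apart from Efcc1 with 15, Enpp2 with 14 and Slco2b1 with 25 UMIs.

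Matrix genes were less apart between the fibroblast states. Of 10 fibrillar and fibril-associated collagens, 2 were at least 2-fold above resting-type nuclei in both libraries. Over all genes at a mean of 10 CPM or more in activated nuclei, 808 of 8987 were. The collagen list's median log2 ratio was 0.74 with vehicle and 0.71 with BT2. Col1a1, a gene of the rule, stood at 788 and 697 CPM in activated and 315 and 346 CPM in resting-type nuclei. Col12a1, a collagen of tissue under tension, stood at 352 and 433 CPM against 67.3 and 66.3 CPM, and Col14a1 went the other way, at 223 and 160 CPM against 705 and 446 CPM. Inhba, the activin A subunit, stood at 84.8 and 136 CPM against 14.4 and 21.0 CPM. The transcription factor Runx2 stood at 270 and 327 CPM against 52.9 and 68.5 CPM. Of 17 contractile genes, 6 were at least 2-fold higher in activated nuclei in both libraries, against the same 808 of 8987. Actn1, the alpha-actinin of focal adhesions, stood at 807 and 528 CPM against 185 and 140 CPM. Acta2, smooth muscle actin and the marker of myofibroblasts, stood at 82.0 and 42.4 CPM against 32.7 and 17.3 CPM.

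The activated nuclei differed among themselves when split by Q. The rule used Q, and Postn is a gene of A, so this split is a description. Q was 0 in 202 of the 438 vehicle nuclei (46.1%) and in 214 of the 608 BT2 nuclei (35.2%). Nuclei with Q at 0 were shallower, with a median of 3919 UMIs against 5744 with vehicle and 4753 UMIs against 6199 with BT2. Hmga2 stood at 348 CPM with vehicle and 490 CPM with BT2 in nuclei with Q at 0, and at 52.5 and 139 CPM in those with Q of 1 or more. Inhba likewise stood at 150 and 229 CPM against 40.7 and 95.7 CPM. C7, a complement component of resting fibroblasts, ran the other way, at 497 and 730 CPM against 1458 and 1717 CPM, and Postn stood at 472 and 686 CPM against 790 and 1001 CPM. The summed cell cycle list hardly differed, at 4656 CPM against 4969 CPM with vehicle and 4960 CPM against 4777 CPM with BT2. The levels of Hmga2 and Inhba were thus higher in nuclei with Q at 0 in both libraries, and both genes were also present with Q of 1 or more.

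Within the activated nuclei, the BT2 and vehicle libraries were close. Of 8987 genes at a mean of 10 CPM or more, 54 (0.601%) were at least 2-fold higher with BT2 and 53 (0.590%) at least 2-fold lower, and the median log2 ratio was -0.04. None of the A genes passed 2-fold. Ltbp2 stood at 1242 CPM with vehicle and 1059 CPM with BT2, a log2 ratio of -0.23 (-0.30 to -0.16). Adam12 stood at 3408 and 3237 CPM (-0.07), Tnc at 704 and 605 CPM (-0.22) and Postn at 662 and 905 CPM (0.45, 0.37 to 0.54). Without the condition on Ptprc, Flt1 and Rgs5, an alternative added after seeing the data, the A genes were all higher with BT2. Their log2 ratios were then 0.69 for Ltbp2, 0.90 for Adam12, 0.52 for Tnc and 1.28 for Postn. The direction of Ltbp2, Adam12 and Tnc thus rested on that condition. These 4 genes chose the nuclei, so their values describe the choice. The intervals treat UMIs as independent and are too narrow where a few nuclei hold most of a gene.

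Leading the 12 genes highest with BT2 by the near bound of the interval were Htr2a, Ackr3, Trhde, Csmd1, Grik2, Cdkn1a, Adamtsl2, Kcnq3, Hs3st3a1, Gadd45g and Nebl. Htr2a, the serotonin 2A receptor, stood at 7.85 CPM with vehicle and 60.2 CPM with BT2, a ratio of 7.67 (4.86 to 12.8), and was detected in 12 of 438 and 99 of 608 activated nuclei. In all other nuclei Htr2a stood at 7.25 and 15 CPM. Ackr3, a scavenging receptor for CXCL12, stood at 4.71 and 22.6 CPM, with UMIs in 11 and 63 nuclei. Gadd45g, a growth arrest and stress gene, stood at 57.3 and 140 CPM, a ratio of 2.45 (2.04 to 2.96), with UMIs in 92 and 232 nuclei. Adamtsl2, an ADAMTS-like matrix protein, stood at 22.8 and 65.2 CPM, and Cdkn1a, the cell cycle inhibitor p21, at 5.89 and 22.1 CPM. Without the condition on Ptprc, Flt1 and Rgs5, Ackr3, Cdkn1a and Nebl were lower with BT2, and after thinning Adamtsl2 was. Several of the others rested on few nuclei: a single nucleus held 90% of the vehicle and 41.5% of the BT2 UMIs of Kcnq3, and 68.8% and 43.6% of those of Grik2. Csmd1, Trhde and Grik2 differed about as much in all other nuclei, with log2 ratios of 1.57, 1.97 and 2.01 in activated nuclei and 1.63, 2.02 and 1.59 elsewhere.

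The 12 genes lowest with BT2 were Fam111a, Plscr2, Plscr1, Kcnv2, Ryr3, Kirrel3, Fosb, Csrp3, Lmod1, Rbp2, Ckmt2 and Slco2a1. Fam111a, a protease of replication forks, stood at 118 CPM with vehicle and 25.1 CPM with BT2, a log2 ratio of -2.24, and in all other nuclei the log2 ratio was -3.98. Plscr1 and Plscr2, neighbouring members of the phospholipid scramblase family whose reads could be shared, stood at 51.0 and 12.3 CPM and at 56.5 and 13.3 CPM. Kcnv2, a potassium channel subunit, stood at 215 and 75.5 CPM, with UMIs in 159 of 438 and 137 of 608 nuclei, while in all other nuclei it stood at 20.2 and 27.9 CPM. Csrp3 and Ckmt2 are genes of striated muscle, and they moved with the summed cardiomyocyte markers, which were also lower with BT2 in activated nuclei (4128 and 3002 CPM). The part of cardiomyocyte RNA in these values was not tested. A single nucleus held 70.7% of the vehicle UMIs of Slco2a1, 28.6% of those of Csrp3 and 26.7% of those of Ryr3. Of the BT2 UMIs, a single nucleus held 45.8% for Fosb and 40% for Lmod1. After thinning, Slco2a1 and Csrp3 were higher with BT2.

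**Figure D3:**
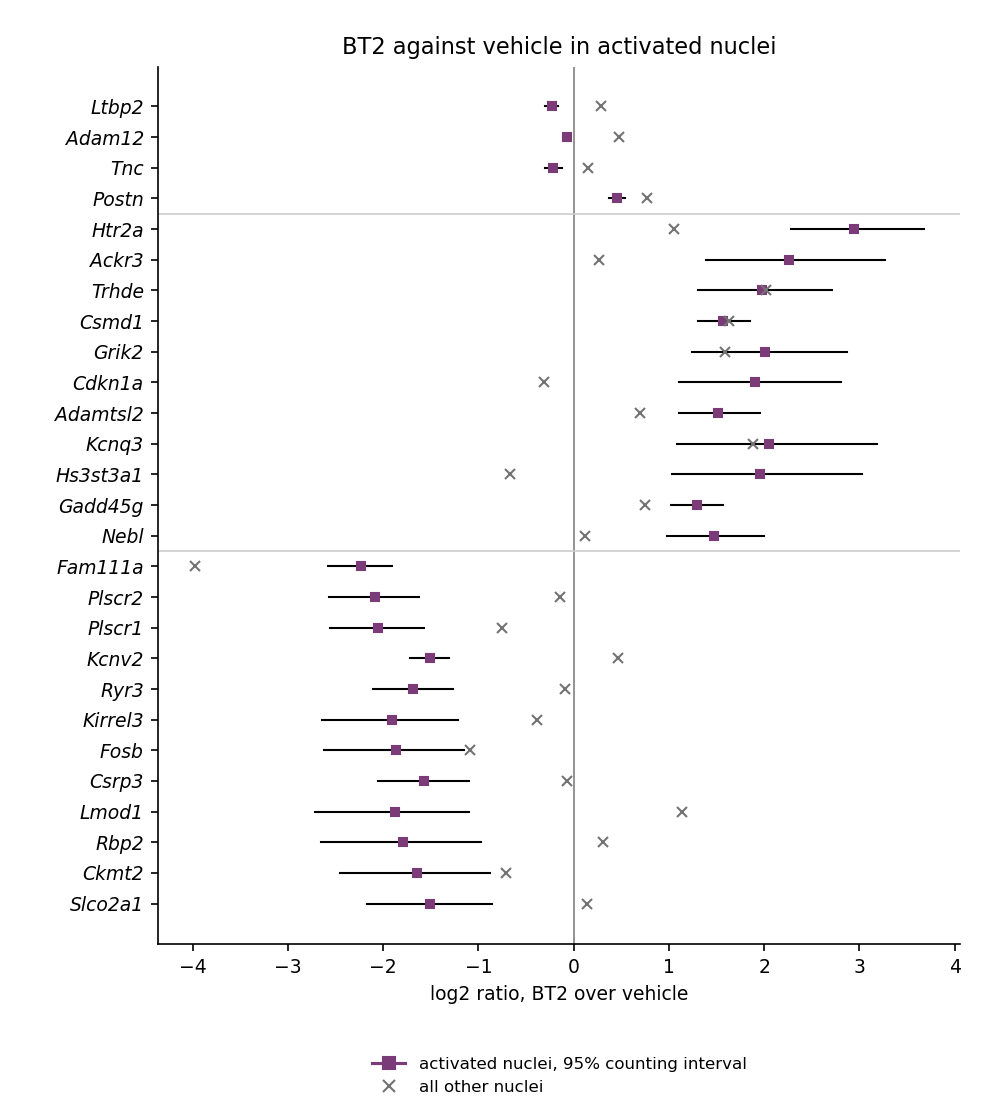
Log2 ratio of BT2 over vehicle (horizontal axis) for the 4 A genes, 11 of the 12 genes highest and the 12 lowest with BT2 in summed activated nuclei, with 95% counting intervals, and the same ratio in all other nuclei (crosses). Fam111a lay at -2.24 in activated nuclei and -3.98 elsewhere, and Htr2a at 2.94 and 1.05.

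Most contractile genes measured were lower with BT2 in activated nuclei. Of 17 contractile genes, 13 had an interval wholly below 1 and none above, against 13.6% below and 11.0% above over all 8987 genes, and the list's median log2 ratio was -0.29. Actn1 stood at 807 CPM with vehicle and 528 CPM with BT2 (ratio 0.655, 0.616 to 0.696), and Acta2 at 82.0 and 42.4 CPM (0.517, 0.419 to 0.636). Lmod1, leiomodin of smooth muscle, stood at 18.4 and 5.02 CPM, with UMIs in 29 and 9 nuclei, 40% of the BT2 UMIs in 1 nucleus. Markers of cardiomyocytes were also lower. Of 12 measured cardiomyocyte markers, 6 had an interval below 1 and none above (median log2 ratio -0.35). Of 5 measured markers of pericytes and smooth muscle, which include Lmod1, 2 lay below and 1 above (median -0.50), and all 11 listed summed to 179 CPM with vehicle and 172 CPM with BT2. Their part in the contractile values was not tested. The count was 9 of 17 among nuclei with Q at 0, 8 of 17 when Ptprc, Flt1 and Rgs5 had to be at 0 and 3 of 17 after thinning. Without any condition on those genes, an alternative added after seeing the data, 8 of 17 were above 1 and 5 below, with a median of 0.0082, so the direction of the list rested on that condition. In all other nuclei the list's median was 0.17.

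Genes of the endoplasmic reticulum stress response were higher with BT2 in part. Of 16 measured, 5 had an interval above 1 and none below, against 11.0% and 13.6% over all 8987 genes, with a median log2 ratio of 0.30. The chaperone Hspa5 (BiP) stood at 128 CPM with vehicle and 201 CPM with BT2 (ratio 1.57, 1.38 to 1.79), and Hsp90b1, its partner GRP94, at 167 and 245 CPM. In all other nuclei Hspa5 stood at 76.0 and 118 CPM. After thinning to 1000 UMIs, none of the 16 had an interval off 1 and the median was -0.25. The list went the other way in tissue. Of 23 tested at 24 h, 2 rose and 16 fell (median log2 fold change -1.03), against 18.9% and 20.7% of all genes tested. At 4 h 0 rose and 14 fell, against 6.67% and 9.73% of all genes tested.

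**Figure D4:**
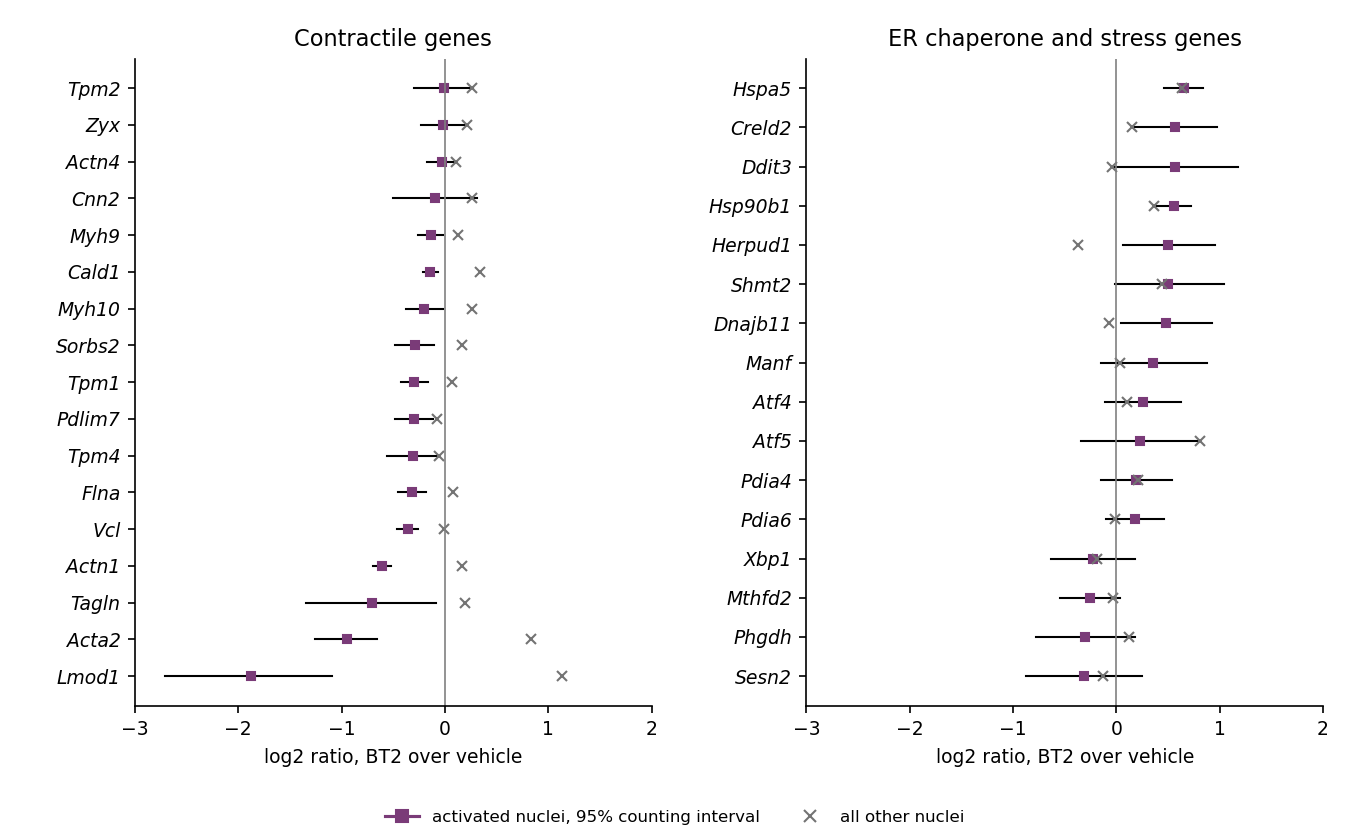
Log2 ratio of BT2 over vehicle (horizontal axis) in activated nuclei, with 95% counting intervals, for 17 contractile genes (left) and 16 endoplasmic reticulum chaperone and stress genes (right), and the same ratio in all other nuclei (crosses). In activated nuclei 13 contractile genes lay wholly below 0 and 5 stress genes wholly above.

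Cell cycle genes and collagens showed no common direction. Of 31 cell cycle genes, 6 had an interval above 1 and 7 below, and the median was -0.07. Of 10 collagens, 4 lay above and 2 below, with a median of 0.05. Without the condition on Ptprc, Flt1 and Rgs5, 23 of the 31 and all 10 collagens lay above 1. Plod2, a lysyl hydroxylase that prepares collagen for cross-linking, stood at 1397 CPM with vehicle and 1743 CPM with BT2. Plod2 fell in tissue at 24 h, a call lost without BT2 replicate 1 or vehicle replicate 1 and with genes of low count kept. Its log2 fold changes there were -1.07, -1.18 and -1.30. Of 18 collagen processing genes tested in tissue at 24 h, 1 rose and 9 fell, against 18.9% and 20.7% of all genes tested. Of 8 measured cytokine and chemokine genes, 6 lay above and 1 below, against 11.0% and 13.6% over all genes. In tissue at 24 h 3 of 29 tested rose and 14 fell (median log2 fold change -1.51), against 18.9% and 20.7% of all genes tested. The values in activated nuclei included the neutrophil chemokine Cxcl1 at 69.9 and 132 CPM and Tnfrsf11b, osteoprotegerin, at 42.8 and 20.8 CPM. Cxcl1 was also higher with BT2 in leukocyte nuclei (17.9 and 36.6 CPM) and in all other nuclei (20.1 and 34.1 CPM). Inhba stood at 84.8 and 136 CPM and Has1, a hyaluronan synthase, at 55.0 and 102 CPM.

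Whole tissue, which the rule did not use, gave the test of BT2 against vehicle, and the activated genes fell there. In bulk RNA a change can come from fewer cells of a type or from less RNA in each cell, and these cannot be told apart. Total counts ran from 10397310 to 24480984 a library. At 24 h, edgeR's quasi-likelihood test called 2873 genes higher with BT2 (18.9%) and 3143 lower (20.7%) of 15216, and at 4 h 1015 (6.67%) and 1480 (9.73%), at a Benjamini-Hochberg adjusted p under 0.05. In either direction these were 39.5% and 16.4% of the genes tested. Ltbp2 stood at 155 and 143 CPM (here counts scaled by library size) in the vehicle libraries at 24 h and at 14.5 and 23.4 in the BT2 libraries, a log2 fold change of -2.98 (SE 0.21, edgeR adjusted p = 0.000331). Adam12 stood at 94.9 and 87.5 CPM against 10.4 and 27.4 (-2.27, SE 0.44, edgeR adjusted p = 0.00739). Tnc stood at 179 and 146 against 32.9 and 65.7 (-1.72, SE 0.34, edgeR adjusted p = 0.00688), and Postn at 332 and 337 against 91.9 and 136 (-1.55, SE 0.25, edgeR adjusted p = 0.00337). For each of the 4 genes both vehicle libraries lay above both BT2 libraries.

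The same genes were already lower at 4 h. Ltbp2 stood at 33.3 and 27.3 CPM with vehicle and 9.44 and 9.20 with BT2, and Adam12 at 30.9 and 18.9 against 3.81 and 2.26. The log2 fold changes at 4 h were -1.70 for Ltbp2, -3.06 for Adam12, -2.2 for Tnc and -1.90 for Postn, with edgeR adjusted p of 0.0106, 0.0169, 0.0135 and 0.0110. The 4 h calls depended on single libraries. Without BT2 replicate 2 none of the 4 passed, with edgeR adjusted p of 0.0596 for Ltbp2, 0.112 for Adam12, 0.072 for Tnc and 0.0525 for Postn. Adam12 and Tnc also missed the threshold without BT2 replicate 1 (edgeR adjusted p = 0.0515 and 0.056) and without vehicle replicate 2 (0.0652 and 0.0768), and in the test that kept genes of low count (0.0736 and 0.0612). At 24 h Adam12 and Tnc missed the threshold when genes of low count were kept in the test (edgeR adjusted p = 0.0541 and 0.0548).

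Genes of the resting sum rose in tissue. At 24 h Hmcn2 stood at 128 and 96.2 CPM with vehicle and 361 and 395 with BT2 (1.75, SE 0.17, edgeR adjusted p = 0.000555), Scara5 rose by 2.89, Abca8a by 2.14 and Htra3 by 2.32 on the log2 scale. At 4 h Hmcn2, Scara5 and Htra3 passed, and Abca8a did not (0.64, edgeR adjusted p = 0.0598). Of the fibroblast genes of the rule, Dcn, the proteoglycan decorin, rose at 24 h from 381 and 279 to 1047 and 1012 CPM (1.64, edgeR adjusted p = 0.000681). Pdgfra, the PDGF receptor of fibroblasts, stood at 140 and 116 against 141 and 130 (edgeR adjusted p = 0.752), and Col1a1 at 749 and 881 against 708 and 652 (edgeR adjusted p = 0.166).

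**Figure D5:**
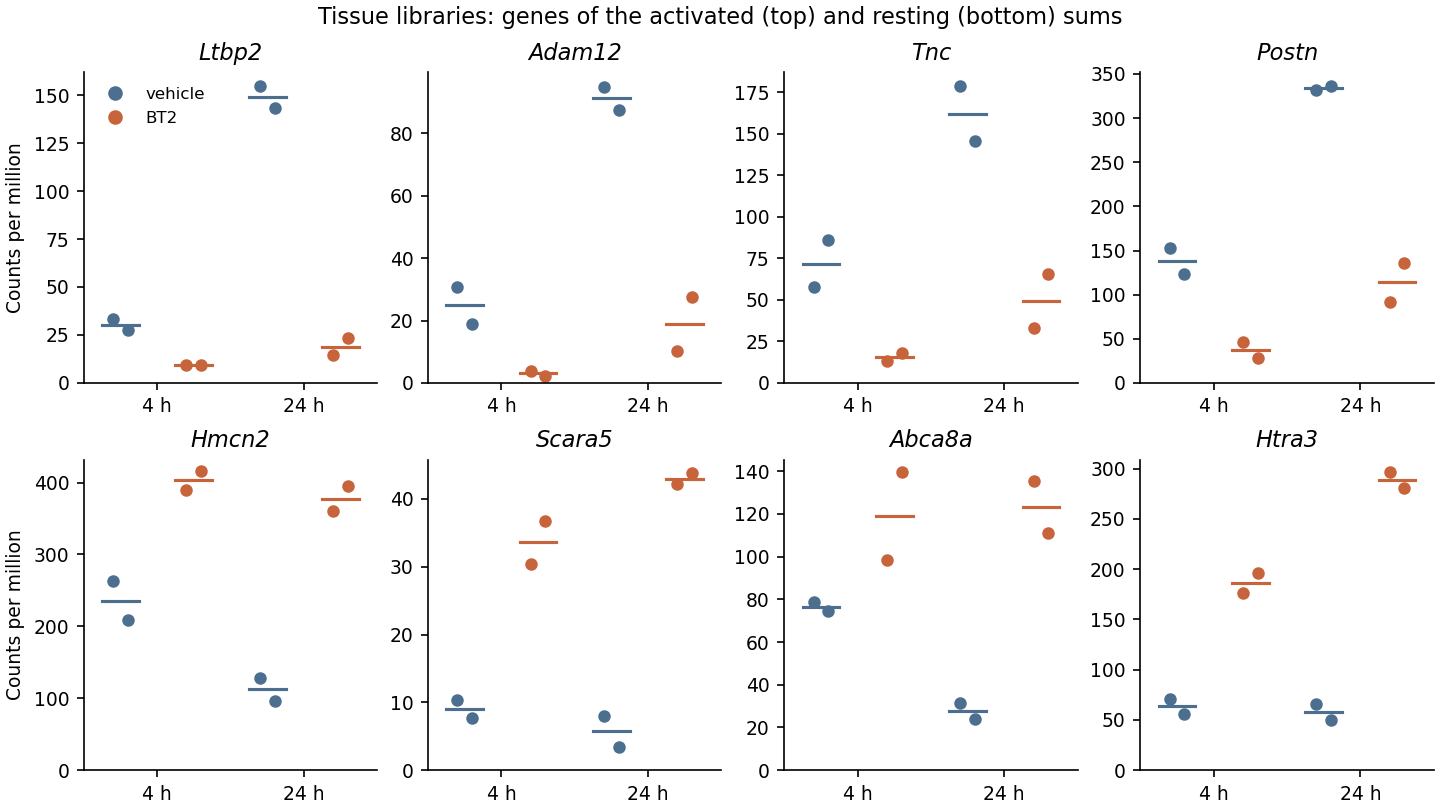
CPM (vertical axes from 0) in each bulk tissue library for the A genes (top row) and the Q genes (bottom row) at 4 h and 24 h, with bars at the mean of 2 libraries. Ltbp2 lay at 155 and 143 with vehicle and at 14.5 and 23.4 with BT2 at 24 h, and Hmcn2 at 128 and 96.2 against 361 and 395.

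The wider set of genes that marked activated against resting-type nuclei behaved like the A and Q genes in tissue. Of 632 genes tested that were at least 2-fold above resting-type nuclei in both libraries, 450 fell and 20 rose with BT2 at 24 h (median log2 fold change -0.90, against -0.01 over all genes tested), and 156 fell and 19 rose at 4 h. Of 421 genes at least 2-fold below, 259 rose and 9 fell at 24 h (median 0.73), and 88 rose and 7 fell at 4 h. Over all genes tested, 18.9% rose and 20.7% fell at 24 h, and 6.67% rose and 9.73% fell at 4 h. These shares are the measure for the counts of this paragraph. Of the 12 genes highest in activated nuclei, 11 were tested and all 11 fell at 24 h, and of the 12 lowest 9 of 10 tested rose. Pak1 fell by 1.88, Wnt2 by 1.62 and Birc5 by 1.5 on the log2 scale, although Wnt2 and Birc5 missed the threshold without either vehicle library or without BT2 replicate 1. Of 33 cell cycle genes 31 fell at 24 h, with Ccnb1 at 20.3 and 20.9 against 5.20 and 8.03 CPM (-1.63, edgeR adjusted p = 0.00255), while at 4 h 2 fell and 1 rose. Of 14 macrophage and monocyte markers 9 fell at 24 h and of 15 cardiomyocyte markers 12 rose. The part of these cells in the tissue values was not tested.

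Fibrillar collagens as a list moved in both directions in tissue at 24 h (median log2 fold change 0.21). Of 11 tested 4 rose and 3 fell, against 18.9% and 20.7% of all genes tested. Single genes of this and other lists, chosen after their values were seen, fell. At 24 h Inhba stood at 38.6 and 35.1 CPM with vehicle against 6.37 and 6.73 with BT2 (-2.49, edgeR adjusted p = 0.00348), Actn1 at 274 and 295 against 61.3 and 81.4 (-2.0, edgeR adjusted p = 0.00320) and Ctgf, connective tissue growth factor, at 578 and 577 against 108 and 91.7 (-2.53, edgeR adjusted p = 0.000999). Fosl1 fell by 2.86 and Col12a1 by 1.56 on the log2 scale at 24 h, calls that were lost without BT2 replicate 1 or vehicle replicate 2 (Fosl1) and without vehicle replicate 1 (Col12a1), and for both when genes of low count were kept (edgeR adjusted p = 0.0788 and 0.1). Acta2 did not pass at either time (-0.26 at 24 h, edgeR adjusted p = 0.464). Of 20 contractile genes 11 fell and 3 rose at 24 h, against 20.7% and 18.9% of all genes tested. At 4 h 7 of them fell, against 9.73% of all genes tested. Autotaxin Enpp2, low in activated nuclei, rose from 4.30 and 4.10 to 38.5 and 30.1 CPM (3.03, edgeR adjusted p = 0.000248).

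Nuclei and tissue differed in direction for the A genes at 24 h. Over all nuclei of each library, Ltbp2 stood at 198 CPM with vehicle and 274 CPM with BT2, Adam12 at 533 and 837 CPM, Tnc at 145 and 183 CPM and Postn at 105 and 218 CPM, while all 4 fell in tissue. The Q genes went the same way in both, with Hmcn2 at 191 and 429 CPM over all nuclei. Several genes showed the same contrast within activated nuclei: Inhba, Cxcl1, Gadd45g and Hspa5 were higher with BT2 in activated nuclei, with log2 ratios of 0.69, 0.92, 1.29 and 0.65, and fell in tissue at 24 h by 2.49, 1.91, 1.16 and 1.04. Actn1 was lower in both, at -0.61 in activated nuclei and -2.0 in tissue. Ackr3 was higher in both, and rose by 1.10 on the log2 scale in tissue (edgeR adjusted p = 0.00804), a call lost without BT2 replicate 1 or vehicle replicate 2 (edgeR adjusted p = 0.0526 and 0.0533). The Cxcl1 call was lost without BT2 replicate 1 or vehicle replicate 1 (edgeR adjusted p = 0.12 and 0.112), and when genes of low count were kept (0.109). Of the 12 genes highest with BT2 in activated nuclei 10 were tested in tissue, where 3 rose and 1 fell, and of the 12 lowest 11 were tested, where 2 rose and 4 fell, against 18.9% and 20.7% of all genes tested, shares near which these counts lie. Htr2a stood at 0.729 and 1.57 CPM in vehicle and 0.814 and 0.652 in BT2 tissue (edgeR adjusted p = 0.285). The nuclear libraries hold nuclear RNA of 1 sample a group and the bulk libraries RNA extracted from heart tissue, and the cause of the difference was not tested.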

How the data were processed

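Nuclear UMI counts were deposited by the authors as Cell Ranger 8.0.1 matrices, per the file headers, and bulk counts per gene as whole numbers. The submitters' processing notes name Trim Galore, STAR, featureCounts, Cell Ranger and the build Rnor 6.0 and no settings. The label of a stranded mRNA kit does not say how strand was counted. All 22037 deposited barcodes passed 500 UMIs. UMIs of each class of nuclei were summed per library and scaled to CPM, and ratios carry exact conditional Poisson intervals (95%). No doublet caller was run and no free RNA was removed. Leukocyte nuclei had at least 3 UMIs of Ptprc and at most 2 of Flt1 and Rgs5 together. Endothelial nuclei had at least 3 of Flt1 and at most 2 of Ptprc and Rgs5. Neither class had a limit on fibroblast or cardiomyocyte genes. Cardiomyocyte nuclei had at least 20 of Ttn, Ryr2, Ctnna3 and Myh6. They also had at most 2 of Ptprc, Flt1 and Rgs5, and at most 2 of the fibroblast sum. Bulk counts were tested with edgeR 4.0.16 (TMM, filterByExpr, quasi-likelihood, all 8 libraries in 1 fit, R 4.3.3), with DESeq2 1.42.0 as an alternative. Of these 2 bulk procedures, edgeR was tested on simulated data and DESeq2 was not. Named genes were the 12 highest and 12 lowest with a proper symbol, ranked by the near interval bound or, against resting-type nuclei, by the smaller of the 2 library ratios, plus up to 3 members of each list. Tissue values are given for a selection of named genes and other members of the lists, made after their values were seen. Members and gene lists were chosen with earlier results of these data known. Results of some genes are not reported here.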

Additional observations from a re-analysis of the deposited data

Results flagged for a closer look

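For 5 genes named in the report, the effect of BT2 in bulk tissue differed between 24 h and 4 h by an interaction term in edgeR's quasi-likelihood fit, as the log2 fold change at 24 h minus that at 4 h. The fall of Ltbp2 was larger at 24 h by -1.28 (edgeR adjusted p = 0.0455). Among resting-type genes, the rise of Hmcn2 was larger by 0.98 (edgeR adjusted p = 0.0422), that of Abca8a by 1.5 (edgeR adjusted p = 0.0256) and that of Enpp2 by 2.63 (edgeR adjusted p = 0.0122). For Dcn the difference was 1.38 (edgeR adjusted p = 0.0215). For Adam12, Tnc and Postn the differences were 0.79, 0.48 and 0.35, with edgeR adjusted p of 0.516, 0.568 and 0.585.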

How the results depend on the processing

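The higher share of activated nuclei among all nuclei with BT2 (log2 ratio 0.61) and the lower share among fibroblast nuclei (-0.42) kept their direction under all 11 alternatives. The first was 0.40 after thinning to 1000 UMIs, 0.35 without the 5% deepest nuclei and 0.26 without the condition on Ptprc, Flt1 and Rgs5, an alternative chosen after seeing the data. The second was -0.65 after thinning.

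Counts past 2-fold with BT2 in activated nuclei (54 higher, 53 lower) depended on depth and on the filter. They were 1007 and 1440 after thinning, 119 and 111 with Ptprc, Flt1 and Rgs5 at 0, 91 and 91 with nuclei weighted equally, 13 and 9 at a mean of 30 CPM or more, 2922 and 2233 with no filter, and 133 and 813 without the condition on Ptprc, Flt1 and Rgs5. Without the 5% deepest nuclei 129 were higher, and with A counted without Adam12 99 were lower. Thinning and the absence of a filter leave fewer UMIs behind each gene. Of the leading genes, Ackr3 (-0.38), Cdkn1a (-0.15) and Nebl (-0.66) turned without the condition on Ptprc, Flt1 and Rgs5. Adamtsl2 (-0.25), Csrp3 (0.75) and Slco2a1 (1.33) turned after thinning, and Slco2a1 (1.10) with Ptprc, Flt1 and Rgs5 at 0. Of the A genes, Ltbp2 (0.69), Adam12 (0.90) and Tnc (0.52) turned without the condition on Ptprc, Flt1 and Rgs5, where Postn was 1.28. The cause was not tested.

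Bulk calls at 24 h (6016 genes) ran from 2982 to 4558 when 1 library was left out, and those at 4 h (2495 genes) from 112 (without BT2 replicate 2) to 2796. Fitting only the 4 h libraries gave 621 calls. Same-numbered samples did not vary together (correlation 0.02 at 24 h and 0.01 at 4 h), so the numbers were not used to pair them. With a replicate block there were 1499 calls at 4 h and 5332 at 24 h. Of the genes named in tissue, those below turned in sign, all of them uncalled with all libraries. Ackr3 at 4 h was 0.010 with upper quartile factors. Leaving out 1 library gave ranges of -0.051 to 0.22 for Pdgfra, -1.10 to 0.0042 for Htr2a and -1.90 to 0.30 for Fosb at 24 h, and at 4 h of -0.36 to 0.25 for Pdgfra, -0.59 to 0.043 for Ccnb1, -0.97 to 0.11 for Ccna2, -0.84 to 0.037 for Acta2, -0.26 to 0.20 for Ackr3, -1.12 to 0.54 for Fosb, -0.70 to 0.26 for Plod2 and -0.44 to 0.77 for Birc5. With 2 libraries a group, their number limits the precision.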

Other observations

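Wt1, a transcription factor of the epicardium, stood at 22.0 CPM with vehicle and 52.7 CPM with BT2 in activated nuclei, where the mesothelial genes Msln and Upk3b were at 0, and at 142 and 125 CPM in endothelial nuclei. Hmga2, high in activated nuclei, was not among the 15216 genes tested in bulk tissue.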
